A study of Mus musculus with 6 samples.

Results

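Aminoacyl-tRNA synthetases are the enzymes that load each tRNA with its amino acid. The genes described here are 36 synthetase genes of the mouse, found by symbol among the 54532 rows of the deposited gene count table. All 36 were found once, and all 36 passed the filter on low counts. Symbols ending in ars2 were taken as mitochondrial (16 genes) and the others as cytosolic (20 genes). Gars and Kars, each of which makes both a cytosolic and a mitochondrial enzyme, were counted as cytosolic. The 6 bulk RNA-seq libraries carry the label NIT-1, the name of a beta-cell line derived from a mouse insulinoma. In the 3 EVs libraries the cells were first kept for 16 h with extracellular vesicles (EVs) from mesenchymal stem cells of human umbilical cord, and in the 3 ERS libraries with PBS. Both groups then received Tm for 8 h, read here as tunicamycin, which blocks N-linked glycosylation and causes endoplasmic reticulum (ER) stress. The ERS samples carry a treatment label of none, whereas the design text and their titles put them under Tm, which was followed. Every difference below is thus one between vesicles and PBS in cells under Tm, since libraries without Tm were not analysed here.

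Cells keep separate sets of synthetases for their separate protein-making systems. The cytosolic enzymes serve the ribosomes that translate nuclear-encoded messages, while the mitochondrial enzymes are encoded in the nucleus, imported, and serve the ribosomes that translate the few messages of the mitochondrial genome. When amino acids run short or unfolded proteins accumulate in the ER, kinases phosphorylate the initiation factor eIF2-alpha, general translation slows, and the transcription factor ATF4 is made. ATF4 acts with C/EBP-family partners on composite promoter elements (CARE), and many cytosolic synthetase genes are among its known targets.

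The libraries held 28654248 to 32550268 counts. Of 14 beta-cell markers, 9 had no more than 3 counts in any library, and 0 averaged 1 CPM (counts scaled to library size) or more, so the labelled cell type is not borne out by its defining transcripts. The summed markers were at 22.3 to 23.6 CPM in ERS and 17.7 to 20.5 CPM in EVs for 8 fibroblast or mesenchymal genes, at 31.2 to 33.5 and 29.5 to 31.2 CPM for 4 endothelial genes, and at 2.73 to 4.403 and 4.62 to 6.49 CPM for 5 macrophage genes. Of these lists 4, 2 and 1 genes averaged 1 CPM or more, as did 1 of 5 acinar genes (Cela1), 0 of 5 duct genes and 0 of 3 genes of other islet cells. The sums hide genes that went opposite ways. Col3a1 had 118, 119 and 101 counts in ERS and 223, 173 and 181 in EVs. Pdgfrb had 204, 202 and 219 counts in ERS and 57, 77 and 76 in EVs. Pecam1 (mean 26.4 CPM) made up most of the endothelial sum and Cd68 (mean 4.61 CPM) most of the macrophage sum. A sum is thus not a level of its cell type. The part of such cells in the results was not tested. In bulk RNA, fewer cells of a type and less RNA per cell cannot be told apart. Whether a group's 3 samples were separate cultures is not in the labels, so a p-value sets a difference against the spread of these 3 samples alone, and that spread may be technical.

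The cytosolic synthetases were lower in EVs as a class, and the mitochondrial synthetases went both ways. Summed over the 20 cytosolic genes, the level per gene length was 1482, 1497 and 1435 CPM per kb in the ERS libraries and 981, 1002 and 982 CPM per kb in the EVs libraries. The EVs libraries all lay below the ERS libraries, with means of 1471 ± 32.4 and 988 ± 11.8 (SD, n = 3 each), a 1.49-fold lower sum. The 16 mitochondrial genes summed to 117, 118 and 118 CPM per kb in ERS and 125, 119 and 116 CPM per kb in EVs, and here the groups overlapped. That overlap depends on the setting. The EVs sums were all above the ERS sums with scaling by library size alone and in CPM not divided by length, and all below them without Lars2. The ratio of the cytosolic to the mitochondrial sum was 12.7, 12.7 and 12.1 in the ERS libraries and 7.85, 8.405 and 8.43 in the EVs libraries, without overlap. These sums are descriptions with no test, because the genes of a class are not replicates.

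**Figure D1:**
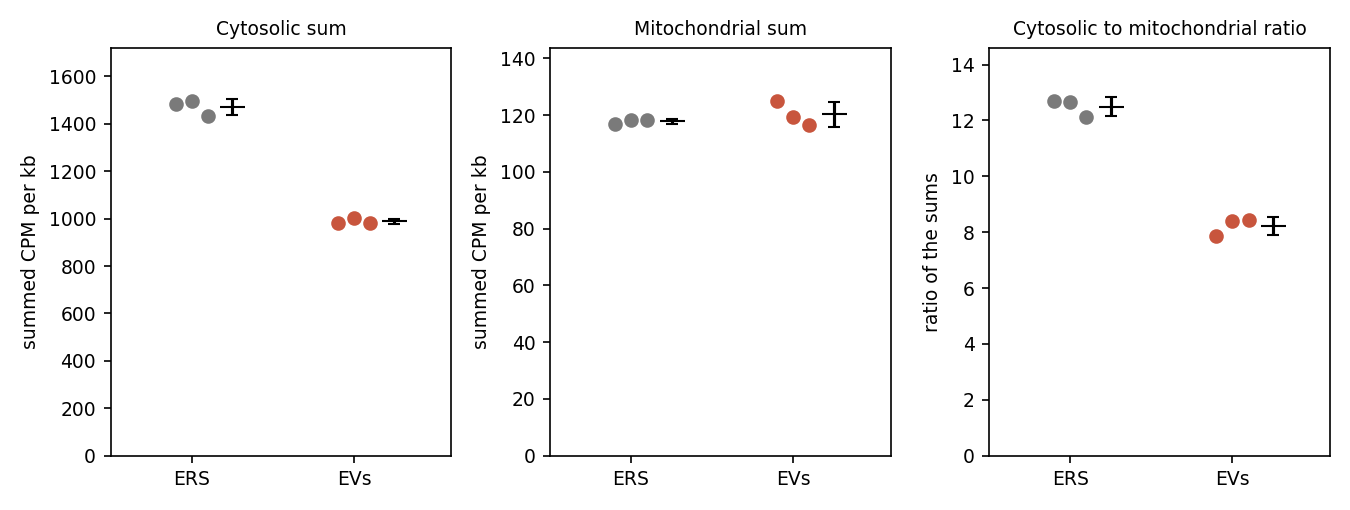
Summed transcript level of the 20 cytosolic and 16 mitochondrial synthetase genes (CPM per kb of gene length) and the ratio of the sums, 1 point per library, with the mean and SD of each group (n = 3) as a black bar. The cytosolic sum is near 1471 in ERS and 988 in EVs, the mitochondrial sums overlap at this scaling, and the ratio falls from a mean of 12.5 to 8.23.

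Gene by gene, 18 of the 20 cytosolic members fell, Qars rose and Mars did not pass (edgeR quasi-likelihood test, Benjamini-Hochberg adjusted p under 0.05 over 16844 genes). Across all tested genes, 24.7% passed as lower and 22.6% as higher, 47.4% in all. The median log2 fold change (EVs minus ERS) was -0.51 over the cytosolic members and 0.0084 over all tested genes. Of the mitochondrial members 6 fell, 3 rose and 7 did not pass, with a median of -0.028, which turned to 0.012 with scaling by library size alone. A fall of at least 1.5-fold was seen in 8 cytosolic members, in 0 mitochondrial members and in 7.44% of all tested genes. The groups did not overlap for 18 falling cytosolic members and for Qars. For all genes, 27.9% were lower without overlap and 26.6% higher without overlap.

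**Figure D2:**
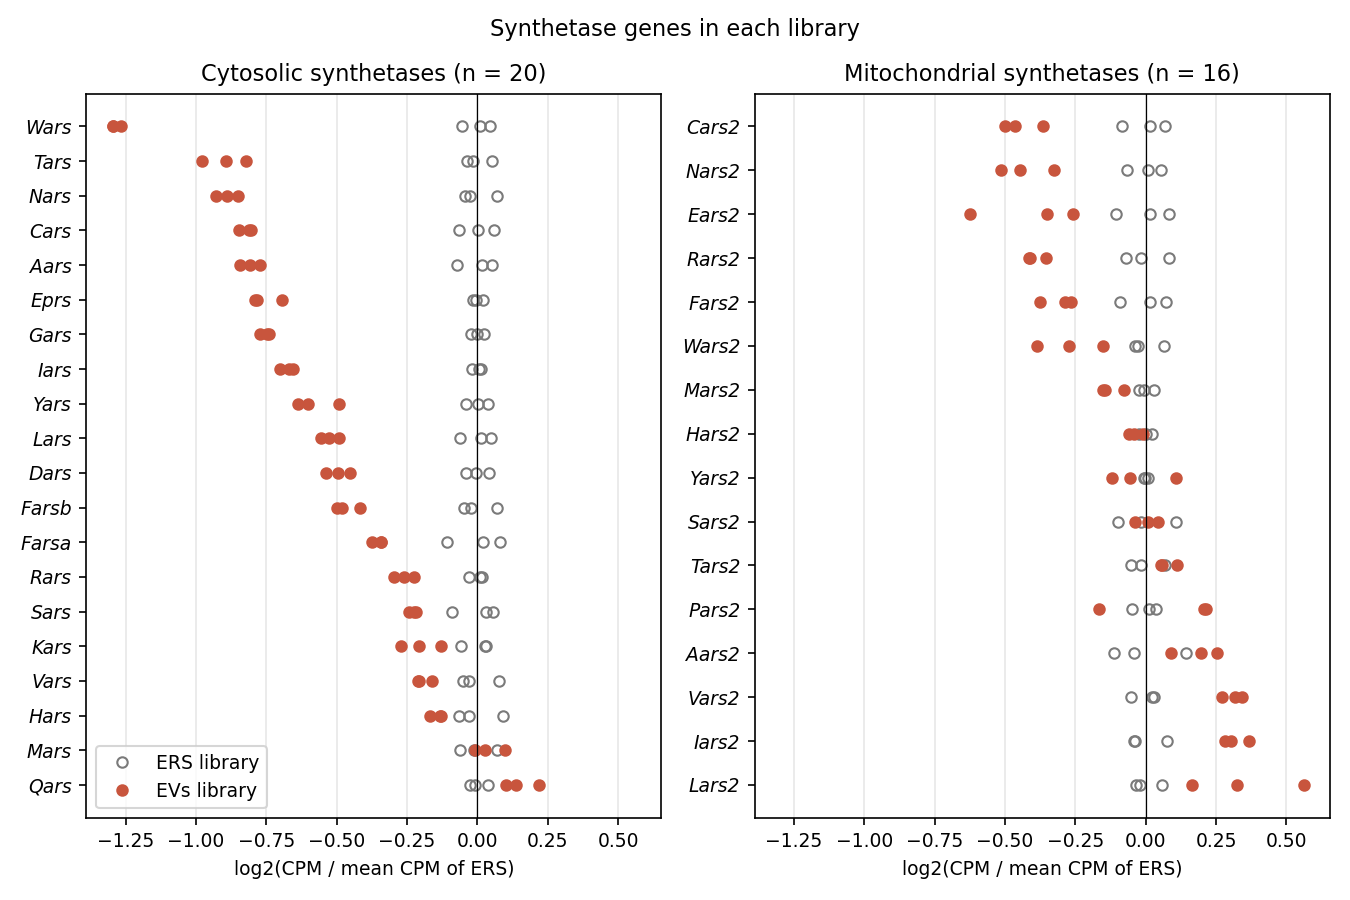
Level of each synthetase gene in each library, as log2 of its CPM over the mean CPM of the ERS libraries (horizontal axis), with genes ordered by fitted fold change, open circles for ERS and filled circles for EVs. The EVs circles of the cytosolic genes spread from Wars (-1.29 in the fit) to Qars (0.15), and those of the mitochondrial genes from Cars2 (-0.44) to Lars2 (0.36).

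The cytosolic members with the largest falls charge tRNAs with tryptophan, threonine, asparagine, cysteine and alanine. Wars (chromosome 12, 108860030 to 108894174, as all coordinates, on GRCm38), the tryptophanyl-tRNA synthetase, was at 224, 229 and 214 CPM in the ERS libraries and 92.4, 90.6 and 90.7 CPM in the EVs libraries. The 3 EVs values lay within a narrow range far below the ERS values, a 2.44-fold lower level (log2 fold change -1.29 ± 0.044, SE, edgeR adjusted p = 1.13e-17). Tars (chromosome 15, 11382301 to 11399665), the threonyl-tRNA synthetase, was at 137, 146 and 139 CPM in the ERS libraries and 75.8, 79.7 and 71.6 CPM in the EVs libraries. It was 1.86-fold lower (edgeR adjusted p = 1.40e-13), and every EVs library was below every ERS library. Nars, the asparaginyl-tRNA synthetase, was at 642, 685 and 633 CPM in the ERS libraries and 353, 362 and 343 CPM in the EVs libraries, 1.85-fold lower in the fit (edgeR adjusted p = 2.08e-15). Cars (chromosome 7, 143557230 to 143600090), which loads cysteine, was at 215, 207 and 197 CPM in the ERS libraries and 118, 117 and 115 CPM in the EVs libraries. Its groups were clearly apart (1.77-fold lower, edgeR adjusted p = 9.23e-14). Aars (chromosome 8, 111033144 to 111057664), the alanyl-tRNA synthetase and the cytosolic member with the most reads, was at 1209.7, 1180.0 and 1111 CPM in the ERS libraries and 667, 683 and 650.5 CPM in the EVs libraries. This was 1.75-fold lower (edgeR adjusted p = 4.28e-15). The Aars span holds Exosc6 on the same strand, a gene listed at 0 counts in all 6 libraries, with which it shares 1326 bases; the part of such shared bases in the Aars count was not tested. The span of Wars overlaps Wdr25 on the other strand over 544 bases, and Wdr25 held 2225 counts in all, against 29355 for Wars, with a log2 fold change of -0.62; its part in the Wars count was not tested.

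Eprs, Gars, Iars, Yars and Lars followed. Eprs (chromosome 1, 185363044 to 185428360), a fused enzyme that loads both glutamate and proline, was at 454, 451 and 463 CPM in the ERS libraries and 265, 282 and 263 CPM in the EVs libraries. Gars (chromosome 6, 55038007 to 55079500), the glycyl-tRNA synthetase of both compartments, was at 764, 751 and 741 CPM in the ERS libraries and 440.1, 447 and 449.9 CPM in the EVs libraries. Both were near 1.7-fold lower, Eprs 1.69-fold lower and Gars 1.69-fold lower. Iars (chromosome 13, 49682100 to 49734267), for isoleucine, was at 513, 502 and 511 CPM in the ERS libraries and 323, 319.8 and 312 CPM in the EVs libraries, 1.597-fold lower. Lars, which loads leucine and is also known as a leucine sensor upstream of mTORC1, was at 353, 380.2 and 371 CPM in the ERS libraries and 261, 255 and 251 CPM in the EVs libraries, 1.44-fold lower. Yars (chromosome 4, 129189760 to 129219607), for tyrosine, was 1.49-fold lower. The edgeR adjusted p of these 5 genes ranged from 5.50e-15 for Gars to 7.09e-11 for Lars, and in each the groups did not overlap.

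The remaining cytosolic members moved less. Dars, for aspartate, fell by 0.49 ± 0.044 on the log2 scale. Farsb and Farsa, the beta and alpha subunits of the phenylalanyl-tRNA synthetase, which works as a tetramer of both, fell by 0.47 and 0.35 on the log2 scale. Rars, Sars, Kars and Vars, for arginine, serine, lysine and valine, fell by 0.26, 0.23, 0.20 and 0.19 on the log2 scale, all with groups that did not overlap. Kars, the other gene that serves both compartments, was at 286, 285 and 269 CPM in the ERS libraries and 232, 256 and 243 CPM in the EVs libraries. Its log2 fold change was -0.20 ± 0.043, against -0.75 ± 0.035 for Gars (SE). Hars, for histidine, passed narrowly, at -0.14 ± 0.053 on the log2 scale (SE; adjusted p = 0.0279 by edgeR). That call was lost without ERS replicate 2 (adjusted p = 0.142) and without any single EVs library (adjusted p up to 0.102). Hars shares 198 bases with the mitochondrial member Hars2 on the other strand, and the part of such bases in either count was not tested.

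Mars and Qars stood apart from the other cytosolic members. Mars (chromosome 10, 127296221 to 127311786), the methionyl-tRNA synthetase, was at 189.9, 179.8 and 174 CPM in the ERS libraries and 179.9, 194 and 185 CPM in the EVs libraries. The values of the groups interleaved, and the log2 fold change was 0.04 ± 0.045 (SE, edgeR adjusted p = 0.497). The 3' end of Mars shares 68 bases with Ddit3 on the other strand, a stress gene whose level was 7.49-fold lower in EVs. Whether Ddit3 reads enter the Mars count was not tested, since the strand setting of the counting is not given. Qars (chromosome 9, 108507706 to 108515941), the glutaminyl-tRNA synthetase, was at 121, 118 and 116 CPM in the ERS libraries and 127, 138 and 130.4 CPM in the EVs libraries. All EVs values exceeded all ERS values, by a small margin (log2 fold change 0.15 ± 0.046, SE, edgeR adjusted p = 0.00734). Without EVs replicate 2 the call was lost (adjusted p = 0.0897).

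The size of the fall was set beside structural features of the enzymes that played no part in their choice. In animal cells 8 of the cytosolic synthetases (Dars, Eprs, Iars, Kars, Lars, Mars, Qars and Rars) are held with 3 scaffold proteins in the multisynthetase complex. The 8 complex members had a median log2 fold change of -0.38, with 6 lower, Qars higher and Mars not passing, and ranged from -0.76 for Eprs to 0.15 for Qars. The 12 cytosolic synthetases outside the complex all fell, with a median of -0.66 and a range from -1.29 (Wars) to -0.14 (Hars), so the ranges overlapped widely. Synthetases also fall into a pair of unrelated folds. The 10 cytosolic enzymes of class I, built on a Rossmann fold, had a median of -0.55, and the 10 of class II had -0.48, with all 10 lower. Eprs is counted in class I by its glutamyl part, while its prolyl part is of class II, so it belongs to both. These counts stand beside 18 of the 20 cytosolic members that fell. Among all tested genes, 24.7% passed as lower and 22.6% as higher. Differences between these subsets were not tested.

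Among the mitochondrial members, the falls were small and those of cysteine, asparagine, glutamate, arginine and phenylalanine were the largest. Cars2 (chromosome 8, 11513977 to 11550783), for cysteine, was at 48.5, 45.3 and 50.3 CPM in the ERS libraries and 33.95, 34.8 and 37.3 CPM in the EVs libraries, without overlap (1.36-fold lower, edgeR adjusted p = 4.43e-06). Nars2 (chromosome 7, 96951505 to 97064758), for asparagine, was at 20.8, 22.6 and 21.9 CPM in the ERS libraries and 15.2, 15.97 and 17.4 CPM in the EVs libraries (1.34-fold lower, edgeR adjusted p = 2.36e-04). Ears2 (chromosome 7, 122037213 to 122067263), which loads glutamate on its own tRNA and also, for later amidation, on the glutamine tRNA, was at 21.5, 20.5 and 18.9 CPM in the ERS libraries and 15.9, 13.2 and 16.95 CPM in the EVs libraries. The 3 EVs values of Ears2 varied more than the ERS values, yet all lay below them (1.32-fold lower, edgeR adjusted p = 0.00142). Rars2 (chromosome 4, 34614957 to 34660167), for arginine, was at 40.2, 41.6 and 44.7 CPM in the ERS libraries and 32.99, 31.7 and 31.6 CPM in the EVs libraries (1.31-fold lower, edgeR adjusted p = 2.72e-05). Fars2 (chromosome 13, 36117412 to 36726280), a single-chain enzyme for phenylalanine, was at 23.2, 22.4 and 20.7 CPM in the ERS libraries and 17.02, 18.1 and 18.4 CPM in the EVs libraries (1.24-fold lower, edgeR adjusted p = 0.00391). Wars2, for tryptophan, was 1.204-fold lower (edgeR adjusted p = 0.0121), a call lost without EVs replicate 3 (adjusted p = 0.0837). The spans of Cars2, Ears2 and Fars2 each overlap another expressed gene on the other strand, whose part in their counts was not tested.

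Lars2, Iars2 and Vars2, which load the branched-chain amino acids leucine, isoleucine and valine, rose. Lars2 (chromosome 9, 123366927 to 123462666) was at 289.8, 293 and 309 CPM in the ERS libraries and 438, 373 and 333 CPM in the EVs libraries. EVs replicate 1 was the highest of the 6, and all 3 EVs values exceeded all ERS values, a 1.28-fold higher level (log2 fold change 0.36 ± 0.062, SE, edgeR adjusted p = 2.99e-05). Without EVs replicate 1 the log2 fold change was 0.24 (adjusted p = 6.22e-04). Lars2 held 63157 counts in all, against a median of 6213.5 over the mitochondrial members. The part of reads that map to several places in the Lars2 count was not tested, since their handling is not given. Iars2 (chromosome 1, 185284726 to 185329396) was at 47.3, 51.2 and 47.3 CPM in the ERS libraries and 62.7, 59.9 and 59.1 CPM in the EVs libraries, 1.25-fold higher (edgeR adjusted p = 6.30e-05). Vars2 (chromosome 17, 35655634 to 35667592) was at 34.05, 33.9 and 32.2 CPM in the ERS libraries and 42.3, 41.6 and 40.3 CPM in the EVs libraries, 1.24-fold higher (edgeR adjusted p = 3.11e-04). Neither Iars2 nor Vars2 had overlapping groups. Iars2 shares 2034 bases with Rab3gap2 on the other strand, which was lower in EVs (log2 fold change -0.48). Lars2 alone made up 22.4%, 22.4% and 23.5% of the mitochondrial sum in the ERS libraries and 31.6%, 28.2% and 25.8% in the EVs libraries. With Lars2 left out, the other 15 genes summed to a lower level in EVs, with a log2 ratio of EVs over ERS of -0.084, against 0.03 with it.

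The 7 mitochondrial members that did not pass had log2 fold changes between -0.12 and 0.18. Aars2, for alanine, was at 21.4, 18.8 and 17.9 CPM in the ERS libraries and 22.2, 20.6 and 23.1 CPM in the EVs libraries, with overlapping groups (log2 fold change 0.18 ± 0.088, SE, edgeR adjusted p = 0.0947). It passed without ERS replicate 1 (adjusted p = 0.0292). Hars2, for histidine, was at 39.1, 39.8 and 38.5 CPM in the ERS libraries and 38.9, 37.6 and 38.1 CPM in the EVs libraries. Yars2, for tyrosine, was at 31.6, 31.6 and 31.8 CPM in the ERS libraries and 29.2, 34.1 and 30.5 CPM in the EVs libraries. In neither gene was a difference detectable beyond the spread of the libraries (log2 fold changes -0.036 ± 0.063 and -0.02 ± 0.073, SE). Mars2, for methionine, was at 36.1, 36.6 and 37.4 CPM in the ERS libraries and 34.8, 33.04 and 33.2 CPM in the EVs libraries, and here all EVs values were below all ERS values without passing the test (edgeR adjusted p = 0.128). Sars2, for serine, was at 15.7, 17.1 and 14.9 CPM in the ERS libraries and 16.00, 15.5 and 16.4 CPM in the EVs libraries. Tars2, for threonine, was at 57.4, 60.8 and 55.9 CPM in the ERS libraries and 60.4, 60.2 and 62.6 CPM in the EVs libraries. Pars2, for proline, had the fewest reads of all members and was at 9.34, 9.91 and 9.74 CPM in the ERS libraries and 8.61, 11.2 and 11.1 CPM in the EVs libraries. Pars2 also had the widest standard error (0.12 on the log2 scale). These values do not show that the genes were equal in the groups.

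The classes could also be compared within an amino acid, since 16 mitochondrial members have a cytosolic counterpart that loads the same amino acid. Farsa stood for the cytosolic phenylalanine enzyme, and Eprs served as counterpart of both Ears2 and Pars2, so those 2 comparisons share a gene. The cytosolic to mitochondrial log2 ratio was lower in EVs in 14 of 16 pairs and higher for arginine and methionine. For tryptophan the ratio of Wars to Wars2 counts was 9.94 in ERS and 4.92 in EVs. For isoleucine (Iars to Iars2) it was 10.5 in ERS and 5.26 in EVs, and for alanine (Aars to Aars2) 60.4 in ERS and 30.4 in EVs. The threonine ratio (Tars to Tars2) was 2.43 in ERS and 1.24 in EVs. In each of these 4 the log2 ratio moved by close to 1, between -1.02 and -0.97, and it was separate between the groups.

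For leucine, isoleucine and valine both genes passed the test in opposite directions, the cytosolic gene lower and the mitochondrial gene higher. Lars fell by 0.52 ± 0.04 on the log2 scale while Lars2 rose by 0.36 ± 0.062 (SE), and the ratio of Lars to Lars2 counts was 1.24 in ERS and 0.675 in EVs. Iars fell by 0.68 ± 0.037 on the log2 scale while Iars2 rose by 0.32 ± 0.058 (SE). Vars (chromosome 17, 35000987 to 35016322) was at 457, 424 and 418 CPM in the ERS libraries and 374, 387 and 375 CPM in the EVs libraries and fell by 0.19 ± 0.04 on the log2 scale, while Vars2 rose by 0.31 ± 0.065 (SE). At the other end, the pairs for phenylalanine (Farsa -0.35, Fars2 -0.31) and arginine (Rars -0.26, Rars2 -0.39) fell in both compartments. In 13 of 16 pairs the log2 ratios were separate between the groups, all but glutamate, phenylalanine and methionine. Among single genes, 27.9% of all tested were lower and 26.6% higher without overlap, and no such share was computed for ratios of gene pairs. The ratios use the same counts as the single-gene results above, so they are not a separate line of evidence. With 3 libraries against 3, the two-sided exact permutation test cannot go below p = 0.10, so no pair could pass. Each of the 13 reached that value in the exact test (0.123 after Benjamini-Hochberg adjustment over the 16 pairs), and the other 3 had an exact p of 0.20.

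**Figure D3:**
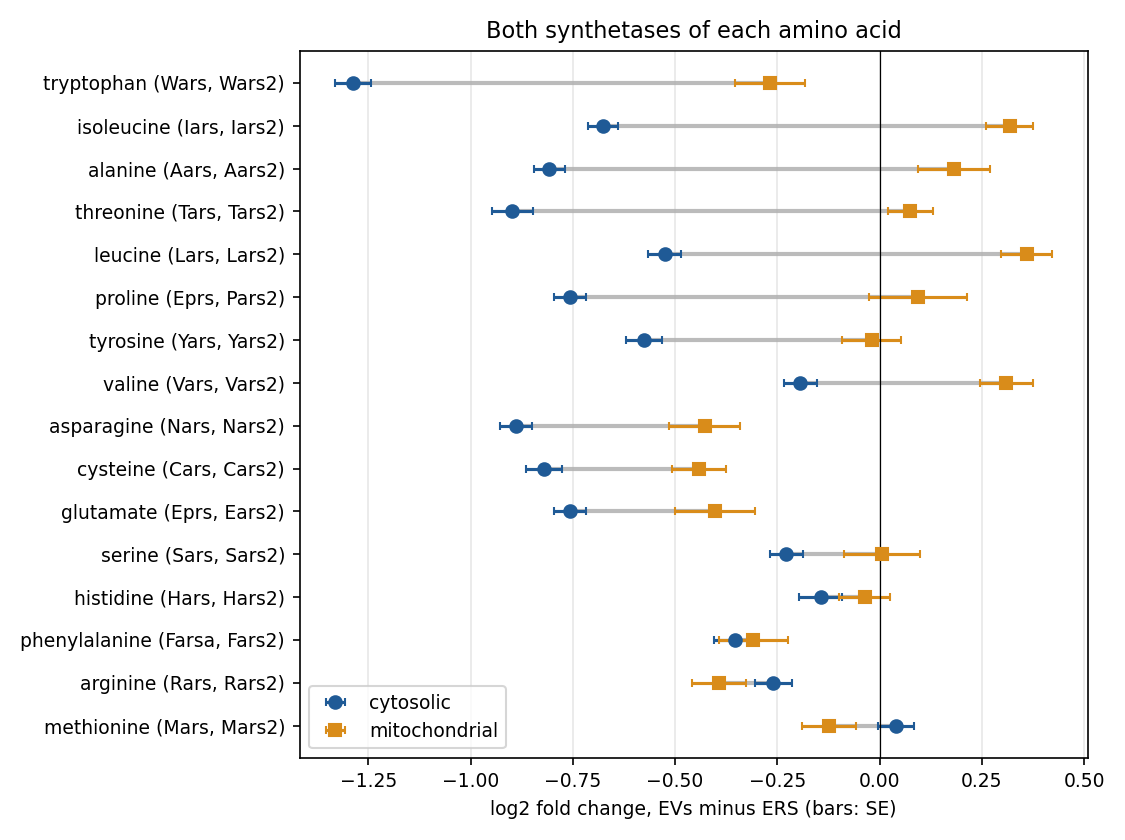
Fitted log2 fold change, EVs minus ERS (horizontal axis, bars are SE), of the cytosolic (circles) and mitochondrial (squares) synthetase of each of 16 amino acids, ordered by the change in their ratio. The grey line between them is longest for tryptophan, isoleucine, alanine and threonine, and for leucine, isoleucine and valine the symbols lie on opposite sides of 0.

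Cytosolic transcripts were more abundant than mitochondrial ones per gene length. In CPM per kb of the deposited gene length in the ERS libraries, Nars stood at 248 ± 10.6, Gars at 241 ± 3.64 and Aars at 126 ± 5.47 (SD, n = 3 each). By that length Nars and Gars did not differ beyond their spread. The lowest cytosolic level was that of Qars (18.01 ± 0.408), with Farsa and then Tars (23.9 ± 0.796) above it. Lars2 was the highest mitochondrial member, at 26.8 ± 0.931 CPM per kb, a level inside the cytosolic range, followed by Rars2 at 15.2 ± 0.828 and Yars2 at 10.1 ± 0.0424. Pars2 (3.12 ± 0.0947), Nars2 (3.12 ± 0.134) and Mars2 (3.25 ± 0.0597) were the lowest, and these 3 did not differ beyond their spread. In EVs, Wars moved from rank 8 to rank 15 of the 20 cytosolic levels, Qars from rank 20 to 16, and Tars became the lowest.

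The order depends on the length used. The deposited lengths equal the union of annotated exons in GENCODE M21 for 33 of 36 members, and for Hars, Lars and Nars they are shorter. With the GENCODE exon union (4355 bases against the deposited 2632), Nars stood at 150.01 CPM per kb in ERS, well below Gars at 241. With the length of the longest protein-coding transcript in its place, Gars was first at 316 CPM per kb and Nars second at 238, Tars was the lowest cytosolic member at 35.2, and Eprs, whose exon union is 18102 bases, moved from rank 17 to rank 8. Lars2 kept the first mitochondrial rank, at 76.3.

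**Figure D4:**
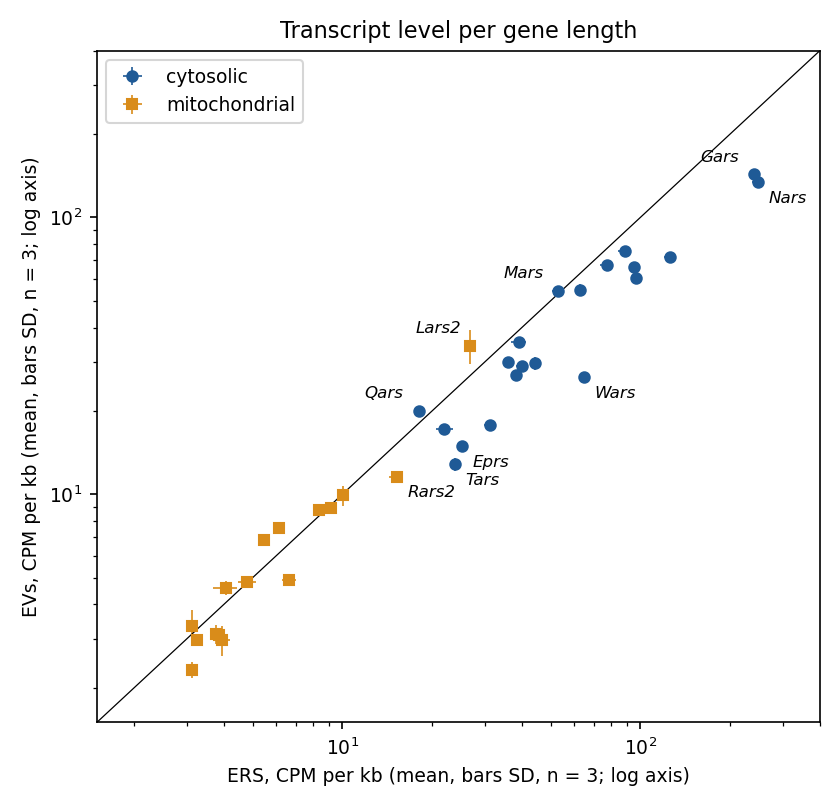
Level of each synthetase gene per kb of deposited gene length, mean of the 3 ERS libraries (horizontal) against mean of the 3 EVs libraries (vertical), both on log axes with SD bars, and the line of equal levels. Cytosolic genes (circles) lie below the line except Mars and Qars, and the mitochondrial genes (squares) lie on both sides of it, with Lars2 highest at 26.8 in ERS and 34.4 in EVs.

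Promoters were searched for the core of the CARE element, TGATGNAA, on both strands, in windows from 250 bases before to 50 bases after the start of each RefSeq gene (GRCm38.p6). Windows were found for 26 of the 36 members, 12 cytosolic and 14 mitochondrial. The motif was present in 5 of 12 cytosolic windows (Aars, Gars, Iars, Tars and Yars) and in 0 of 14 mitochondrial ones, against 3.97% of all 32851 windows of that length and 2.67% of the 10839 tested genes with a window. The matches are shown because all 5 genes are among the falling cytosolic members described above. Each line gives 30 bases in the direction of transcription, with the match in capitals, and TTNCATCA is the same motif read from the other strand.
Aars: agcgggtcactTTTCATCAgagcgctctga
Gars: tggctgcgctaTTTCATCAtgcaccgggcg
Iars: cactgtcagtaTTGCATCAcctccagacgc
Tars: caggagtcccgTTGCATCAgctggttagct
Yars: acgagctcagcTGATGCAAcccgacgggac

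On GRCm38.p6 these 30 bases lie at chr8:111033840-111033869, plus strand for Aars, chr6:55037960-55037989, plus strand for Gars, chr13:49682126-49682155, plus strand for Iars, chr15:11399655-11399684, minus strand for Tars and chr4:129189895-129189924, plus strand for Yars. The match begins 30 bases before the start in Gars and 15 in Tars. In Yars, Iars and Aars it begins at bases 4, 8 and 10 of the transcript. The 5 genes with a match had a median log2 fold change of -0.75 (from -0.90 in Tars to -0.58 in Yars). The 7 cytosolic members with a window and no match (Dars, Eprs, Farsa, Farsb, Kars, Qars and Sars) had a median of -0.35 (from -0.76 in Eprs to 0.15 in Qars). Eprs thus fell as much as the genes with a match. The other 8 cytosolic members (Cars, Hars, Lars, Mars, Nars, Rars, Vars and Wars) had no window and were not searched. Their median was -0.39, and they include Wars (-1.29), Nars (-0.89) and Cars (-0.82), 3 of the 5 largest falls. Over all tested genes with a window, 38.8% of the 289 with the motif passed as lower, against 29.7% of the 10839 in all. The cyclic AMP element TGACGTCA was in 0 of the 26 members' windows (1.79% of all windows, 3.43% of tested genes with a window), and the E-box CACGTG in 4 cytosolic members (Aars, Farsb, Iars and Tars) and in Ears2 (7.15% of all windows, 11.3% of tested genes with a window). These are letter matches with no test.

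Longer stretches upstream of the start are given for 2 cytosolic genes with a match (Gars and Tars), for Sars, a cytosolic gene with no match that fell by 0.23, and for Mars2, a mitochondrial gene with no match that did not pass. Matches to the CARE core are in capitals.
Gars: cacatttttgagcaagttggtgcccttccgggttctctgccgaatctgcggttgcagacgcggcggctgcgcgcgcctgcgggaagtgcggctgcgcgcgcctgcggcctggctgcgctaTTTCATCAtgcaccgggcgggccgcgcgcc
Tars: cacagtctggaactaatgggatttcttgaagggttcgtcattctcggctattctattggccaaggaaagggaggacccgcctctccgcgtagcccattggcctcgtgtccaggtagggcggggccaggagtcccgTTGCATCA
Sars: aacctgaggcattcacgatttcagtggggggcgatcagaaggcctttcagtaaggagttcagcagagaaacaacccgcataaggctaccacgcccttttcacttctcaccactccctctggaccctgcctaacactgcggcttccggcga
Mars2: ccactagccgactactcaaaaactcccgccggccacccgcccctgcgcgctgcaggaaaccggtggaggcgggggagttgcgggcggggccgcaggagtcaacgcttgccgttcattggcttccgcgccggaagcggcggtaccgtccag
They lie at chr6:55037851-55038000, plus strand (Gars), chr15:11399666-11399808, minus strand (Tars), chr3:108445260-108445409, minus strand (Sars) and chr1:55237027-55237176, plus strand (Mars2), on GRCm38.p6. Each begins 150 bases before the start of the RefSeq transcript. In Gars and Tars the match sits close to the start.

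Partners of the synthetases moved with them in part. As a scale for these lists, 24.7% of all tested genes passed as lower and 22.6% as higher, 47.4% in all. Of the 3 scaffolds of the multisynthetase complex, Eef1e1 and Aimp1 fell and Aimp2 did not pass (median -0.34). Eef1e1 was at 47.6, 53.8 and 51.1 CPM in the ERS libraries and 39.4, 34.2 and 35.2 CPM in the EVs libraries, below the ERS range in every EVs library, and Aimp1 at 58.1, 61.5 and 59.8 CPM in the ERS libraries and 50.2, 50.04 and 41.6 CPM in the EVs libraries. Aimp2 had a log2 fold change of -0.16 ± 0.08 (SE), and it passed without EVs replicate 2 (adjusted p = 0.04203). Mitochondria make glutaminyl-tRNA by amidation, through a 3-subunit enzyme of Gatb, Gatc and Qrsl1. Of these and Mtfmt, which formylates the initiator methionyl-tRNA, Gatc and Qrsl1 fell, and Gatb and Mtfmt did not pass. Gatc was 1.61-fold lower, at 38.04, 45.1 and 39.9 CPM in the ERS libraries and 26.7, 24.8 and 24.7 CPM in the EVs libraries, a fall larger than that of any mitochondrial synthetase in the fit. Qrsl1 was 1.31-fold lower (edgeR adjusted p = 0.0124), a call lost without EVs replicate 1 (adjusted p = 0.0767), and Gatb had 0.19 ± 0.11 (SE, edgeR adjusted p = 0.163).

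Of 5 genes of editing and proofreading, 2 fell and 3 did not pass, where 24.7% of all tested genes passed as lower. Tarsl2, a close relative of Tars, was at 35.9, 34.9 and 31.1 CPM in the ERS libraries and 23.8, 24.2 and 23.3 CPM in the EVs libraries, 1.43-fold lower, and Prorsd1, related to the editing domain of prolyl-tRNA synthetase, fell by 0.54 ± 0.13 on the log2 scale (SE), while Dtd1, which removes D-amino acids from tRNA, had -0.16 ± 0.11 and did not pass. All 3 genes of selenocysteine charging fell (median -0.34). Among them Sepsecs, which converts phosphoseryl-tRNA to selenocysteinyl-tRNA, was at 38.3, 40.1 and 47.5 CPM in the ERS libraries and 33.2, 30.9 and 33.7 CPM in the EVs libraries, and Pstk, the kinase before it, fell by 0.34 ± 0.08 on the log2 scale (SE). Eefsec, the elongation factor for selenocysteine, had -0.20 ± 0.078 (SE, edgeR adjusted p = 0.0415), a call lost with the replicate block, with library size alone, with the stricter filter and without ERS replicate 1, ERS replicate 2 or EVs replicate 1 (adjusted p up to 0.198). Xpot, the export receptor that carries tRNA out of the nucleus, was at 578, 574 and 568 CPM in the ERS libraries and 360.0, 365 and 359 CPM in the EVs libraries, 1.59-fold lower (edgeR adjusted p = 8.08e-14). Xpo5, whose cargo includes small structured RNAs, fell by 0.19 ± 0.043 on the log2 scale, and Nxf1, the main mRNA export factor, did not pass. Of 20 tested genes of tRNA end processing 9 fell, 4 rose and 7 did not pass (median -0.10). Among all tested genes, 24.7% passed as lower and 22.6% as higher. Pop4, a subunit of RNase P, was 1.46-fold higher, and Hsd17b10, a subunit of the mitochondrial RNase P, 1.28-fold higher. Tsen34, of the tRNA splicing endonuclease, was 1.37-fold higher. These 3 were named by smallest p and all rose, whereas more genes of their list fell than rose. Trmt10c, also a subunit of the mitochondrial RNase P, was 1.43-fold lower (edgeR adjusted p = 1.49e-06). Of the other Rpp and Pop genes listed, Rpp38, Rpp40 and Pop5 fell, Pop1 rose and the rest did not pass.

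The elongation factors, among them those that bring charged tRNA to the ribosome, did not share the fall of the cytosolic synthetases. Of 6 tested cytosolic elongation factor genes 5 rose and Eef1b2 did not pass (median 0.19), where 22.6% of all tested genes passed as higher. Eef1b2 had 0.085 ± 0.038 (SE, edgeR adjusted p = 0.0663), and it passed as higher with DESeq2 (adjusted p = 0.04004), limma-voom (0.0441), library size alone (0.00719) and the stricter filter (0.0279), and without ERS replicate 2 (0.0306). Eef1a1, the factor that delivers aminoacyl-tRNA, was at 4934, 5211 and 5087 CPM in the ERS libraries and 5988, 5837 and 5897 CPM in the EVs libraries, and Eef2, the translocase, at 3459, 3277 and 3061 CPM in the ERS libraries and 4072, 4223 and 4155 CPM in the EVs libraries. Eef1g, a subunit of the exchange factor, was at 648, 633 and 599 CPM in the ERS libraries and 706, 719 and 727 CPM in the EVs libraries. In each of the 3, all EVs values exceeded all ERS values, with log2 fold changes of 0.22 ± 0.028, 0.35 ± 0.035 and 0.19 ± 0.037 (SE). Of the 5 genes listed as mitochondrial elongation factors, Tufm and Gfm2 rose, Tsfm fell and 2 did not pass, with a median of -0.031. Of all tested genes, 47.4% passed in either direction. The log2 fold changes of those that passed were 0.14 ± 0.048 for Tufm, 0.13 ± 0.052 for Gfm2 and -0.16 ± 0.05 for Tsfm (SE), and each call was lost without at least 1 single library. Among these, without EVs replicate 3 the adjusted p of Tsfm was 0.05099 and that of Tufm 0.0758, and without EVs replicate 2 that of Gfm2 was 0.227. The Gfm2 call was also lost with the replicate block (adjusted p = 0.07004) and with no filter (0.108).

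**Figure D5:**
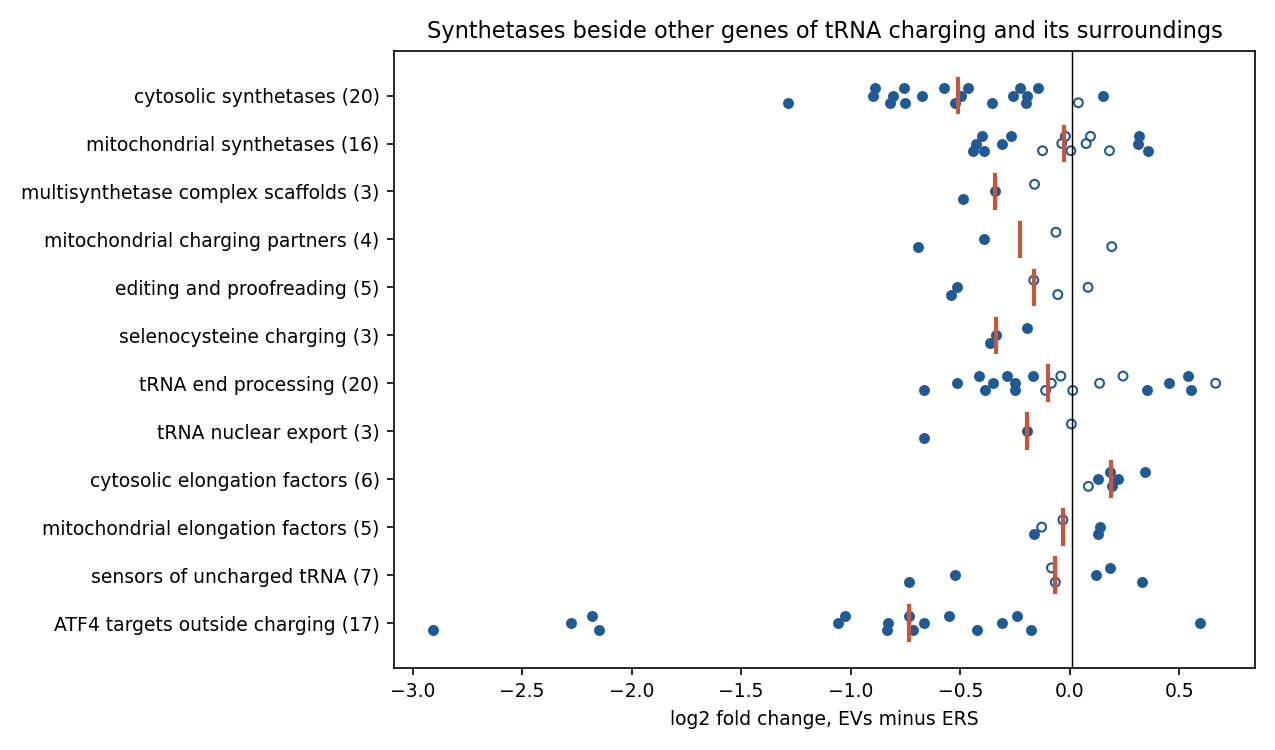
Log2 fold change, EVs minus ERS (horizontal axis), of each tested gene of the cytosolic and mitochondrial synthetases and of 10 other gene lists, with the number tested in brackets, filled points for genes that passed, open points for those that did not, an orange bar at each list's median and a vertical line at the median of all tested genes. The medians run from -0.73 for ATF4 targets outside charging and -0.51 for the cytosolic synthetases to 0.19 for the cytosolic elongation factors.

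Genes of the stress pathway known to act on synthetase genes were lower in the same libraries. Atf4 was at 419, 423 and 411 CPM in the ERS libraries and 230.0, 239 and 237 CPM in the EVs libraries, 1.78-fold lower (edgeR adjusted p = 4.28e-15). Of 17 tested ATF4 targets outside charging 16 fell and Vldlr rose (median -0.73). For comparison, 24.7% of all tested genes passed as lower and 22.6% as higher. Ddit3, which encodes CHOP, was at 304, 303 and 296 CPM in the ERS libraries and 39.5, 39.5 and 41.5 CPM in the EVs libraries, 7.49-fold lower. The pseudokinase gene Trib3 was 4.44-fold lower and Nupr1, another stress-response gene, 4.84-fold lower. The falls of these 3, named by smallest p, exceed that of every synthetase. The whole list ran from -2.91 to 0.59 on the log2 scale, and 11 of the 17 fell by at least 1.5-fold. Hspa5, the ER chaperone BiP, was 10.5-fold lower. A further list of 7 genes holds sensors of uncharged tRNA or amino acids and partners of such sensors. Of these, Sesn2, which reports leucine shortage to mTORC1, and Lars fell, 3 rose and 2 did not pass. Lars is also a cytosolic member and Sesn2 is also among the ATF4 targets above, so these falls are not further observations. Sesn2 was at 150.1, 143 and 129.9 CPM in the ERS libraries and 85.6, 87.3 and 81.4 CPM in the EVs libraries, and its relative Sesn1 rose by 0.33 ± 0.079 on the log2 scale (SE). Eif2ak4 (GCN2), the eIF2-alpha kinase that binds uncharged tRNA, was at 85.5, 89.9 and 88.8 CPM in the ERS libraries and 91.3, 96.9 and 98.9 CPM in the EVs libraries (log2 fold change 0.12 ± 0.049, SE, edgeR adjusted p = 0.0476). That call was lost without any single ERS library, without EVs replicate 2 or 3 (adjusted p up to 0.204), with the replicate block (0.0769) and with no filter (0.124). All genes of the mitochondrial genome together took 2.51% ± 0.0751 of counts in ERS and 2.93% ± 0.0453 in EVs (SD, n = 3 each). The messages that the mitochondrial synthetases serve were not counted apart from the other genes of that genome. The part of Atf4 in the differences between synthetases was not tested.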

How the data were processed

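Bulk RNA-seq of total RNA gave 6 libraries, 3 per group by their titles. The authors trimmed adaptors and aligned with HISAT2 2.2.1 (per the labels' protocols); featureCounts 2.0.6 is named in the submitters' processing notes. Deposited values are raw counts for each gene. Not given in the sources used here: strand setting and multi-mapping, which leaves overlapping genes uncertain. Other values the authors deposited are the start, end and length of each gene, in bases. The notes name mm39, but start and end of 33 of 36 members (all but Hars, Lars and Nars) equal GENCODE M21 on GRCm38, so coordinates are read as GRCm38.

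EVs were compared with ERS by edgeR 4.0.16 in R 4.3.3 (TMM, filterByExpr, quasi-likelihood F test, two-sided, Benjamini-Hochberg over 16844 genes, threshold 0.05). CPM uses TMM-scaled library sizes, except for markers, and fold changes are EVs minus ERS. The common biological coefficient of variation was 6.05%. Libraries of a group differed by a mean chi-square over genes of 3.68 to 7.68, above sampling noise, so all 6 were kept. The fit was tested on simulated data. Promoter sequences are from RefSeq (GRCm38.p6), and 1 sequence is not reported here.

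Members and lists were chosen with earlier results of these data known. By rule, values in every library are given for the 5 largest falls and up to 3 largest rises per class. They are also given for the 2 highest levels and the lowest per class, pairs passing in opposite directions and members that did not pass. From each other list up to 3 genes are named by smallest p, with Atf4, Ddit3, Hspa5 and Eif2ak4. Library values of Eprs and Kars were added after their values were seen. So were, by name, Vldlr, Eef1b2, Mtfmt, Trmt10c, the Rpp and Pop genes other than Pop4, and single marker genes. Alternatives were other size factors, other filters, DESeq2 1.42.0, limma-voom 3.58.1, a replicate block, leaving out each library, and an adjusted p under 0.01.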

Additional observations from a re-analysis of the deposited data

How the results depend on the processing

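No member that passed changed direction under any alternative run. Hars2, Sars2 and Yars2, which did not pass, changed sign under some. Over the alternatives other than leaving out a library, 284 values of single members kept their direction and side of the threshold, 3 lost a call (Hars with library size alone, adjusted p = 0.1101, and Hars and Wars2 at the threshold of 0.01) and 1 gained it (Aars2 with library size alone, adjusted p = 0.0415). The cytosolic members lower in EVs numbered 17 to 18 when single libraries were left out, and those higher 0 to 1. The cytosolic median then ranged from -0.54 to -0.50 and the mitochondrial median from -0.061 to -0.025. The sign of the mitochondrial median is not settled. It was 0.012 with library size alone, which moves the median of all genes up, and 0.0055 without members that overlap a protein-coding gene, an alternative chosen after seeing the data. The log2 ratio of EVs over ERS for the cytosolic sum was -0.53 with library size alone. For the mitochondrial sum it was 0.069 with library size alone, 0.12 in plain CPM and -0.084 without Lars2, chosen after seeing the data. For the ratio of the sums it was -0.69 in plain CPM and -0.49 without Lars2, against -0.60. Longest coding transcripts as lengths were also added after seeing the data. Same-numbered libraries did not deviate together (correlations -0.056, 0.012 and -0.027). Such correlations cannot exclude a shared day or culture, and the labels do not say whether the numbers pair the libraries. With the replicate block 7737 genes passed (4058 lower, 3679 higher) in place of 7976, with 18 cytosolic members lower, 1 higher, 6 mitochondrial members lower and 3 higher, and medians of -0.51 and -0.029. Reads over the 6 libraries numbered 1861 to 63157 per mitochondrial member and 13804 to 171323 per cytosolic member, with a median SE of 0.07 and 0.044 on the log2 scale.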
